A study of Mus musculus with 13 samples.

Results

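The genes described here encode the general and regulatory proteins of pre-mRNA splicing: the SR proteins, the heterogeneous nuclear ribonucleoproteins (hnRNPs), the SF3a and SF3b subunits, and the proteins of the small nuclear ribonucleoproteins (snRNPs). They were chosen by gene symbol (Srsf followed by a number, Hnrnp, Sf3a or Sf3b followed by a number, and Snrp), without symbols that hold "-ps", and with 10 or more normalized counts in at least 2 of 13 libraries. Of 53 matching symbols 1 held "-ps", and 52 genes were kept out of 26264 in the table and 17755 tested. The rule holds the same filter on low values as the test, so all 52 were tested. The lowest was Snrpf, at 12.6 to 41.0 normalized counts, and 0 matching genes lay below the filter. The RNA came from punches of the ventral tegmental area (VTA), a midbrain source of dopamine, of mice labelled C57BlJ/6. At postnatal day 14 the mice received a virus with either Setd7, an enzyme that puts single methyl groups on histone and other proteins, or green fluorescent protein (GFP). In adulthood some of them went through social defeat.

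The groups are Setd7 defeat (Setd7 virus with social defeat, n = 2, 1 female), Setd7 control (Setd7 virus without defeat, n = 4, 2 female), GFP defeat (GFP virus with defeat, n = 4, 2 female) and GFP control (GFP virus without defeat, n = 3, 1 female). All 4 groups received a virus, and the promoter that drives it is not given in the sources used here. The labels do not say that each library is a separate animal, so p-values measure the spread between these samples. The data column of Setd7 defeat replicate 1 carries a longer number than its title, and whether that library holds 1 animal is not settled.

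Splicing starts when the U1 snRNP pairs with the start of an intron and the U2 snRNP, held by SF3a and SF3b, with its branch point. Each of these snRNPs carries a ring of Sm proteins. SR proteins bind exons through their RNA-recognition domains and, once phosphorylated on their arginine-serine domains, recruit this machinery, whereas many hnRNPs coat introns and hold it back, so the balance of both sets which exons enter a message. Brain tissue uses more alternative exons than most tissues, and SR genes also limit their own output through poison exons, whose inclusion sends the transcript to nonsense-mediated decay (NMD).

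The promoters of 4 genes are printed because these genes had the smallest p-values or non-overlapping groups in the comparisons given further on. The sequences are from RefSeq on build GRCm38.p6, run 5′ to 3′ on the gene's strand, and span 250 bases before to 50 after the annotated start. Capitals mark matches to the ETS core CCGGAAG or the CCAAT box CCAAT on either strand. Srsf5 lies at chr12:80945249-80945548 on the plus strand, Srsf11 at chr3:158036557-158036856 on the minus strand, Hnrnpdl at chr5:100039173-100039472 on the minus strand and Hnrnpa3 at chr2:75659009-75659308 on the plus strand.
Srsf5: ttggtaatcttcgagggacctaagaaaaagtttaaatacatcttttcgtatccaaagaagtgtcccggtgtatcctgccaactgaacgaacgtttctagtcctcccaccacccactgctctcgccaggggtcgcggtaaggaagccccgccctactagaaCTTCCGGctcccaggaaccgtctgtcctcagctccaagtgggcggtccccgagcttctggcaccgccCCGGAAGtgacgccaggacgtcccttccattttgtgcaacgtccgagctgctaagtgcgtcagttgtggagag
Srsf11: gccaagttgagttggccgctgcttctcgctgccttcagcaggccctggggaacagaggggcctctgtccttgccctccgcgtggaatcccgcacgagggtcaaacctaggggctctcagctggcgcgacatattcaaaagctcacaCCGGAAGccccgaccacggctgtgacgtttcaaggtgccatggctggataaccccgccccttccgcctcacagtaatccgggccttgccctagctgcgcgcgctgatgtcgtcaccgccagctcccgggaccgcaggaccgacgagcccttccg
Hnrnpdl: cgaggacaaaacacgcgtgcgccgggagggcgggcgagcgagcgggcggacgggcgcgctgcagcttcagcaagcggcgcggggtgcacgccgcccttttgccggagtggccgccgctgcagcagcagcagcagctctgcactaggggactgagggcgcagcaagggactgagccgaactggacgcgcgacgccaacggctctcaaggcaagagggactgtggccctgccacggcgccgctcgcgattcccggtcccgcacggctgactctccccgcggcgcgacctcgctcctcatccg
Hnrnpa3: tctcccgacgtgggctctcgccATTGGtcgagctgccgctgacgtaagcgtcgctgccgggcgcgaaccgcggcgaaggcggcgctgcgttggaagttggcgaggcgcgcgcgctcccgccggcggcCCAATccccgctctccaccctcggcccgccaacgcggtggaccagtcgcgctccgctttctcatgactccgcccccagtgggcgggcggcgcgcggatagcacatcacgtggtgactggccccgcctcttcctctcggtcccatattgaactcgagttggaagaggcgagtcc
The Srsf5 promoter holds the ETS core once on each strand and the Srsf11 promoter once. The Hnrnpa3 promoter holds CCAAT once on each strand. The Hnrnpdl promoter holds none of the 7 motifs searched.

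The search covered 63 promoters of 46 of the 52 genes and all 20150 promoters of that length, on both strands. The ETS core stood in 21 of the 63 (33.3%) against 11.9% of all promoters, and those 21 belong to 16 genes, among them Sf3a1, Sf3a2, Sf3a3, Srsf4 and Srsf7. CCAAT stood in 44.4% against 37.8%, the TATA box TATAAA in 11.1% against 12.1%, the CRE TGACGTCA in 3.17% against 2.31%, the YY1 core AAGATGGC in 3.17% against 3.11%, the NRF1 motif in 1.59% against 1.38% and the palindromic Kaiso-like motif in 1.59% against 0.685%. Promoters of one gene can overlap and CCAAT is short, so these shares are descriptions of the letters and not of binding.

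The libraries held 26.5 to 50.8 M recovered reads (M, mega). Setd7 itself read 28587 to 158680 normalized counts in the 6 Setd7 libraries, against 10888 to 14538 in the 7 GFP libraries (log2 fold change averaged over defeat 2.81 ± 0.30, adjusted p = 0.00861 by limma). Setd7 control replicate 4 was the lowest of the Setd7 libraries and lay above every GFP library. Th, which makes the dopamine precursor, read 2539 in GFP defeat replicate 1, 3392 in GFP control replicate 2 and 2508 in GFP control replicate 3. Every other library had 9760 to 19111. All 18 dopamine neuron markers were above 0 in every library, and their summed level was 44442, 43809 and 38488 in those 3 libraries against 94736 to 173970 in the others. Differences from GFP control or from GFP defeat rest in part on these 3 libraries, and values without them are given for part of the results. Setd7 control replicate 4 also stood apart in Cd74, an antigen-presentation gene, with 8725 normalized counts against at most 902 in the other libraries. The 12 markers of meningeal fibroblasts, cells of the brain's covering, summed to 19809 in Setd7 defeat replicate 1, against 2308 to 6016 elsewhere, and values without that library are given in comparisons with Setd7 defeat.

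The 52 genes together summed to 112220 to 120850 normalized counts per library, a 1.08-fold range, with Setd7 defeat replicate 1 the lowest and GFP control replicate 2 the highest. Per kilobase of exon, which allows only a rough comparison of levels between genes, Hnrnpa0 led with a mean of 1667 normalized counts per kb. Srsf2 followed with 1273 and Srsf1 with 1249. The exon length covers all annotated transcripts, also those with retained introns, and reads can be split with pseudogene copies. Whether this shapes the order of genes or families was not tested. The hnRNP A/B and D group had the highest median per kb of the 7 families, 580, and the other hnRNPs followed with 484. The Sm proteins had a median of 81.6 per kb and the U1 and U2 proteins 84.5. Snrpc, the U1-C protein that helps U1 meet the intron start, was lowest at 10.5 per kb over a long annotated exon length of 6.52 kb. The depth of these counts differs greatly between families: Srsf1 averaged 7134 normalized counts, Hnrnpu 7475, Hnrnpd 6727, Sf3b1 6555 and Sf3a1 3036, while the best counted Sm gene, Snrpd3, averaged 750 and the best counted U1 or U2 gene, Snrpa, 546.

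**Figure D1:**
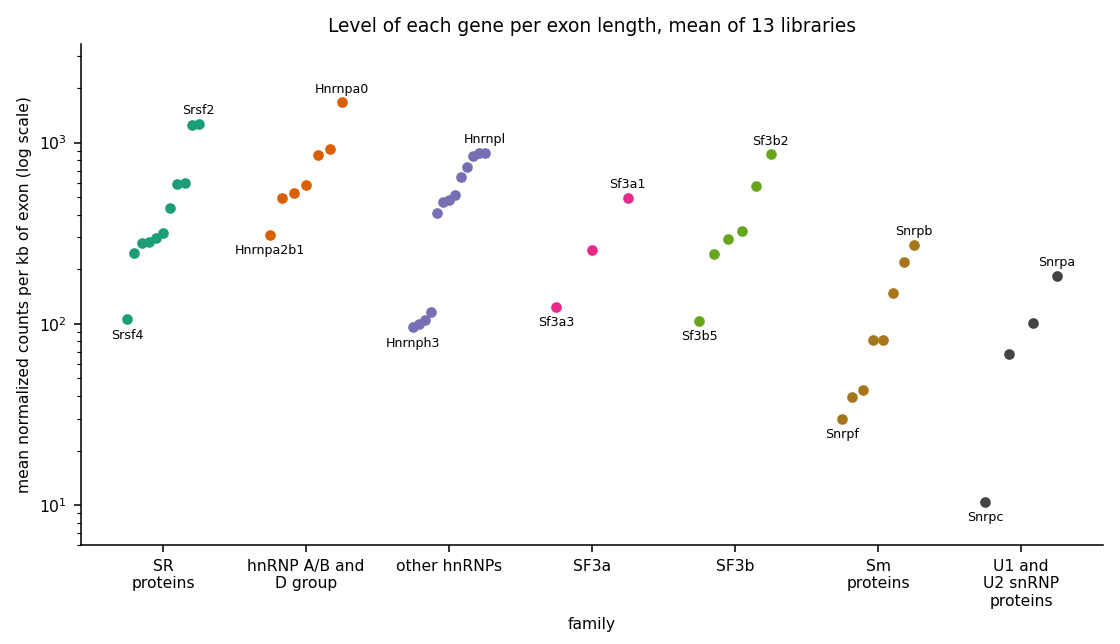
Each point is a gene's mean over the 13 libraries in normalized counts per kb of annotated exon (log axis), by family, with the lowest and highest gene of each family named. Hnrnpa0 stands highest at 1667 per kb, and the Sm family runs from Snrpf at 29.9 to Snrpb at 272 per kb.

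The genes varied little from library to library. The median standard deviation (SD) over the 13 libraries was 0.106 on the log2(normalized count + 1) scale, against 0.192 for the 17755 tested genes. Spread falls with level, and among genes over 1000 normalized counts the medians were 0.0856 for 30 of the genes and 0.114 for 6542 tested genes. Hnrnph1, a G-tract binding hnRNP, was the steadiest, with an SD of 0.0622 and 2548 to 2931 normalized counts. Srsf1, the founding SR protein, had 6746 and 6661 normalized counts in Setd7 defeat, 6726, 7171, 7458 and 6771 in Setd7 control, 7429, 6848, 7199 and 7191 in GFP defeat, and 7710, 7811 and 7023 in GFP control. The 13 libraries of Srsf1 lie within a 1.17-fold range, and the 2 highest values are in GFP control. Hnrnpu, the scaffold attachment factor that binds chromatin-associated RNA, ranged from 6686 to 8465. The spread was widest in the Sm family, with a median SD of 0.254, where Snrpf read 30.1 and 32.8 in Setd7 defeat, 17.5, 12.6, 41.0 and 14.3 in Setd7 control, 17.9, 25.0, 37.6 and 35.3 in GFP defeat, and 13.04, 35.0 and 22.6 in GFP control. These 4 groups of Snrpf overlap, and its counts are low.

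**Figure D2:**
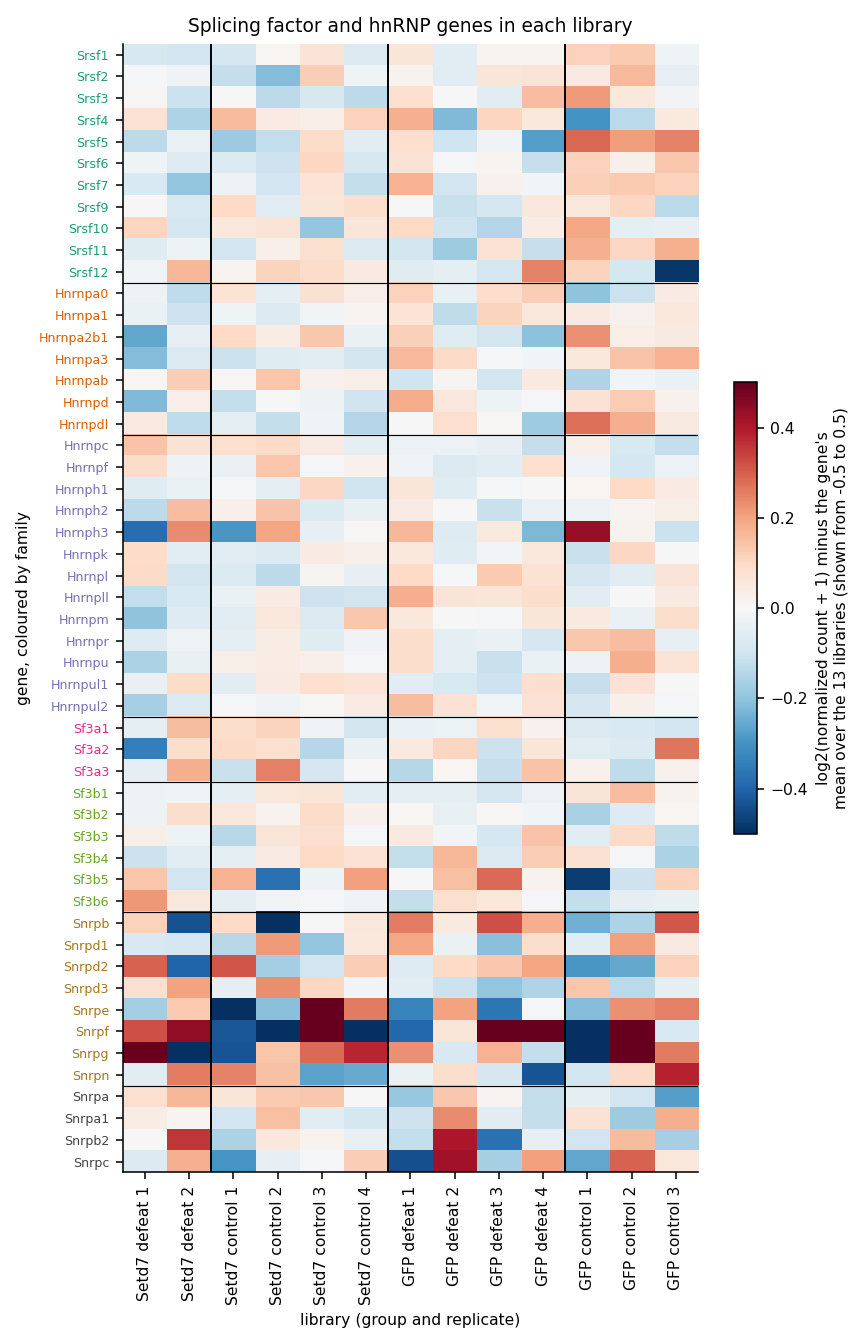
Each row is 1 of the 52 genes, coloured by family, and each column 1 library; the colour is log2(normalized count + 1) minus the gene's mean over the 13 libraries, shown from −0.5 to 0.5. Srsf5 and Srsf11 are red in the GFP control columns, and the Sm rows show the widest colours. Hnrnpdl is less evenly red there, with 2438 normalized counts in GFP control replicate 3 against a mean of 2374 over the 13 libraries.

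Comparisons were tested with limma on log2(normalized count + 1) with group means and sex in the fit, adjusted over all 17755 tested genes by Benjamini-Hochberg, and a log2 fold change is on that scale, given with its standard error (SE). No call was made: 0 of 52 genes passed an adjusted p of 0.05 in any of the 8 comparisons by limma, and 0 by edgeR or DESeq2 on the recovered reads. Over all tested genes limma called 0 (0.0%) in 7 comparisons and 1 (0.00563%), Setd7 itself, in the Setd7 effect averaged over defeat. edgeR called the same numbers. DESeq2 gave an adjusted p to 11215 genes in Setd7 without defeat and called 35 (0.312% of them), to 14312 in defeat with GFP and called 85 (0.594%), and to 16722 for both together and called 26 (0.155%). Of all 17755 genes it called 6 (0.0338%) in Setd7 after defeat, 7 (0.0394%) in defeat with Setd7, 1 (0.00563%) in the interaction, 7 (0.0394%) for Setd7 averaged and 8 (0.0451%) for defeat averaged. Words such as higher and lower below therefore give the direction of an estimate and not a call. In bulk tissue, fewer cells of a type and less RNA per cell cannot be told apart.

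The first comparison, Setd7 control over GFP control, asks what the Setd7 virus changes in mice that met no defeat. SR proteins and the hnRNP A/B and D group lay lower with Setd7 for most genes, and SF3b subunits higher for most, with no gene past the adjusted threshold. By limma 1 gene was higher and 6 lower at an unadjusted p under 0.05, against 766 (4.31%) higher and 657 (3.7%) lower among all tested genes, and DESeq2 gave the same 1 and 6. Estimates lay above 0 for 23 of the 52 genes and below for 29, against 51.4% and 48.6% of all tested genes, with a median of −0.04, against 0.01 for all tested genes. Of the SR proteins 8 of 11 lay lower (median −0.10), of the hnRNP A/B and D group 5 of 7 (−0.06), of the other hnRNPs 8 of 13 (−0.01), and of SF3b 1 of 6 (0.06). Of all 13 libraries, GFP control replicate 1 had the highest summed level of SR proteins, 28444 normalized counts. It had the lowest of Sm proteins, 1989, and of SF3b, 16401. Without the 3 libraries low in Th, GFP control is this replicate alone, here and wherever GFP control enters below. That replicate is assumed to vary like the other groups. Then 10 of 11 SR proteins lay lower (median −0.16), 5 of 7 of the hnRNP A/B and D group (−0.13) and 4 of 13 other hnRNPs (0.04), while 7 of 8 Sm proteins lay higher (0.15, against −0.01 with all libraries), 3 of 4 U1 and U2 proteins (0.13, against −0.03) and 4 of 6 SF3b (0.08). In the same comparison 18 of 18 dopamine neuron markers lay higher (median 0.98) and 11 of 11 markers of thalamus and other excitatory neurons lower (−0.87), and their part in the results was not tested.

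Srsf5, an SR protein, had 1576 and 1688 normalized counts in Setd7 defeat, 1524, 1584, 1842 and 1663 in Setd7 control, 1830, 1614, 1704 and 1426 in GFP defeat, and 2109, 1995 and 2051 in GFP control. All 3 GFP control libraries lie above all 10 others. Its log2 fold change in Setd7 control over GFP control was −0.31 ± 0.09 (adjusted p = 0.539 by limma), and −0.40 without the 3 libraries low in Th. Hnrnpdl, a relative of the AU-rich element binder Hnrnpd, had 2441 and 2165 in Setd7 defeat, 2290, 2178, 2332 and 2136 in Setd7 control, 2371, 2504, 2373 and 2090 in GFP defeat, and 2862, 2681 and 2438 in GFP control. Its lowest GFP control library was above every Setd7 control library but below 1 library of each defeat group. Hnrnpdl had the smallest unadjusted p of the 52 in this comparison (log2 fold change −0.27 ± 0.07, adjusted p = 0.539 by limma and 0.126 by DESeq2), and was −0.31 without the 3 libraries low in Th.

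Hnrnpa3, an A/B-type hnRNP, had 3961 and 4379 normalized counts in Setd7 defeat, 4274, 4416, 4424 and 4322 in Setd7 control, 5143, 4911, 4586 and 4559 in GFP defeat, and 4768, 5077 and 5189 in GFP control. Every Setd7 library lies below every GFP library, with or without defeat. The log2 fold change was −0.20 ± 0.06 without defeat (adjusted p = 0.547 by limma) and −0.13 without the 3 libraries low in Th. Hnrnpa3 has 27 pseudogenes of at least 95% identity over 200 bases or more, so reads can be split among copies and its counts are uncertain. Srsf3, the smallest SR protein, was −0.18 ± 0.07 (−0.28 without the 3 libraries low in Th), Srsf7, its closest relative, −0.17 ± 0.08 (−0.17), and Srsf11, an SR-related protein, −0.16 ± 0.07 (−0.23). Of these 3, Srsf11 and Srsf7 had no overlap between Setd7 control and GFP control, and Srsf3 did overlap.

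On the higher side stood Sf3b2, the SF3b subunit that contacts RNA near the branch point. Sf3b2 had 6096, 5923, 6247 and 5958 normalized counts in Setd7 control, against 5225, 5598 and 5897 in GFP control, which do not overlap (log2 fold change 0.13 ± 0.05, adjusted p = 0.604 by limma, and 0.19 without the 3 libraries low in Th). Snrpa, the U1-A protein, had 567, 595, 598 and 545 in Setd7 control, against 527, 510 and 449 in GFP control, also without overlap (0.22 ± 0.10, adjusted p = 0.624 by limma, and 0.15 without those libraries). Hnrnpa0 was 0.13 ± 0.07 (0.21 without them) and Hnrnpab, which also has an antisense neighbour over 29.1% of its exons, 0.12 ± 0.07 (0.20). In all, 3 genes were higher and 7 lower without overlap between the 2 groups, against 740 (4.17%) and 727 (4.09%) of all tested genes. The 95% interval of the fold change lay within 1.5-fold either way for 48 of 52 genes, against 60.9% of all tested genes.

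**Figure D3:**
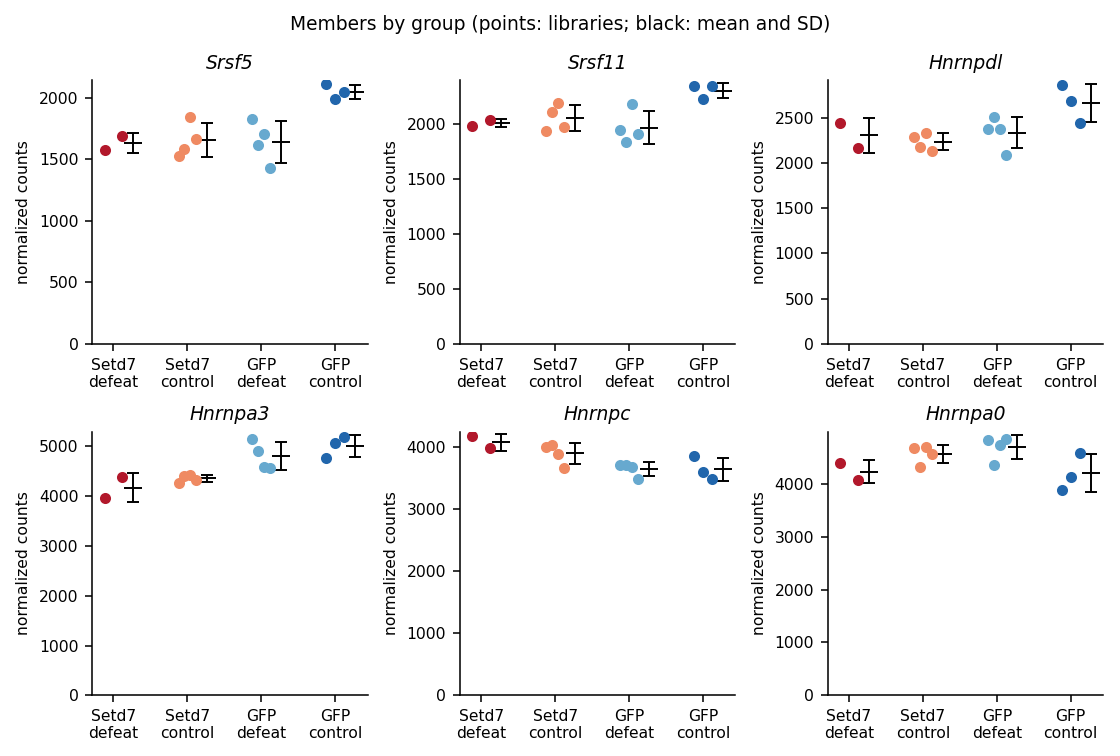
Normalized counts of 6 genes by group, with Setd7 defeat leftmost and GFP control rightmost; points are libraries, black bars mean and SD, and axes start at 0. Srsf5 and Srsf11 are highest in the 3 GFP control libraries, and Hnrnpa3 is lower in all 6 Setd7 libraries than in all 7 GFP libraries.

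Defeat with GFP virus, GFP defeat over GFP control, asks what differs between defeated and undefeated mice that had the GFP virus. It shares its GFP control libraries with the comparison above, so like estimates in both are not independent. GFP control also enters both treatments together, the interaction and the averaged effects, so like estimates there are not independent either. Srsf5 and Srsf11 led the lower side and Hnrnpa0 the higher side, with no gene past the adjusted threshold. By limma 1 gene was higher and 4 lower at an unadjusted p under 0.05, against 865 (4.87%) and 777 (4.38%) of all tested genes. Of the 52 estimates 22 lay above 0 and 30 below, against 49.6% and 50.4% of all tested genes, with a median of −0.01, against −0.00. SR proteins lay lower in 9 of 11 (median −0.07), the hnRNP A/B and D group in 5 of 7 (−0.02) and the other hnRNPs in 8 of 13 (−0.01), while SF3b lay higher in 5 of 6 (0.06). The Sm proteins split into 4 higher and 4 lower, with a median of 0.08 by limma but 0.01 by DESeq2 and 0.01 by edgeR. Without the 3 libraries low in Th, GFP control is again replicate 1 alone. Then 10 of 11 SR proteins (−0.16) and 5 of 7 of the hnRNP A/B and D group (−0.08) lay lower, and 6 of 8 Sm (0.25), 4 of 6 SF3b (0.08) and 4 of 4 U1 and U2 proteins (0.12) higher. Beside these, 18 of 18 dopamine neuron markers lay higher (median 0.81) and 11 of 11 thalamus markers lower (−0.56), and their part was not tested.

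Srsf5 was −0.32 ± 0.09 in this comparison (adjusted p = 0.375 by limma, 0.127 by DESeq2), which is 0.799 of GFP control. Srsf11 had 1949, 1836, 2181 and 1913 normalized counts in GFP defeat, against 2346, 2231 and 2344 in GFP control, without overlap. Its log2 fold change was −0.22 ± 0.07 (adjusted p = 0.423 by limma). The other groups of Srsf11 held 1988 and 2039 in Setd7 defeat and 1940, 2110, 2191 and 1974 in Setd7 control, so here too all 3 GFP control libraries stand above the other 10. Only these 2 of the 52 genes did so, against 202 (1.14%) of all tested genes. Leaving out the 3 libraries low in Th, so that GFP control is replicate 1 alone, made Srsf5 −0.48 and Srsf11 −0.30.

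Hnrnpdl was −0.21 ± 0.07 (adjusted p = 0.449 by limma, and −0.24 without the 3 libraries low in Th) and overlapped between GFP defeat and GFP control. Sf3b1, the largest SF3b subunit, which clamps the branch point, had 6328, 6333, 6175 and 6421 normalized counts in GFP defeat, against 6841, 7297 and 6628 in GFP control. These 2 groups do not overlap, and the log2 fold change was −0.13 ± 0.06 (adjusted p = 0.514 by limma, and −0.12 without the 3 libraries low in Th). Hnrnpa0, a single-exon hnRNP in the annotation with 1 transcript, had 4833, 4349, 4740 and 4852 in GFP defeat, against 3880, 4132 and 4580 in GFP control. Its groups overlap, with a log2 fold change of 0.17 ± 0.07 that did not pass the adjusted threshold, and 0.23 without the 3 libraries low in Th. Hnrnpa2b1, an hnRNP that also carries messages in neural cells, was −0.17 ± 0.09 and −0.36 without the 3 libraries low in Th. Sf3b5, a small SF3b subunit, was 0.29 ± 0.16 and 0.60 without them. The 95% interval lay within 1.5-fold for 45 of 52 genes, against 60.5% of all tested genes.

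**Figure D4:**
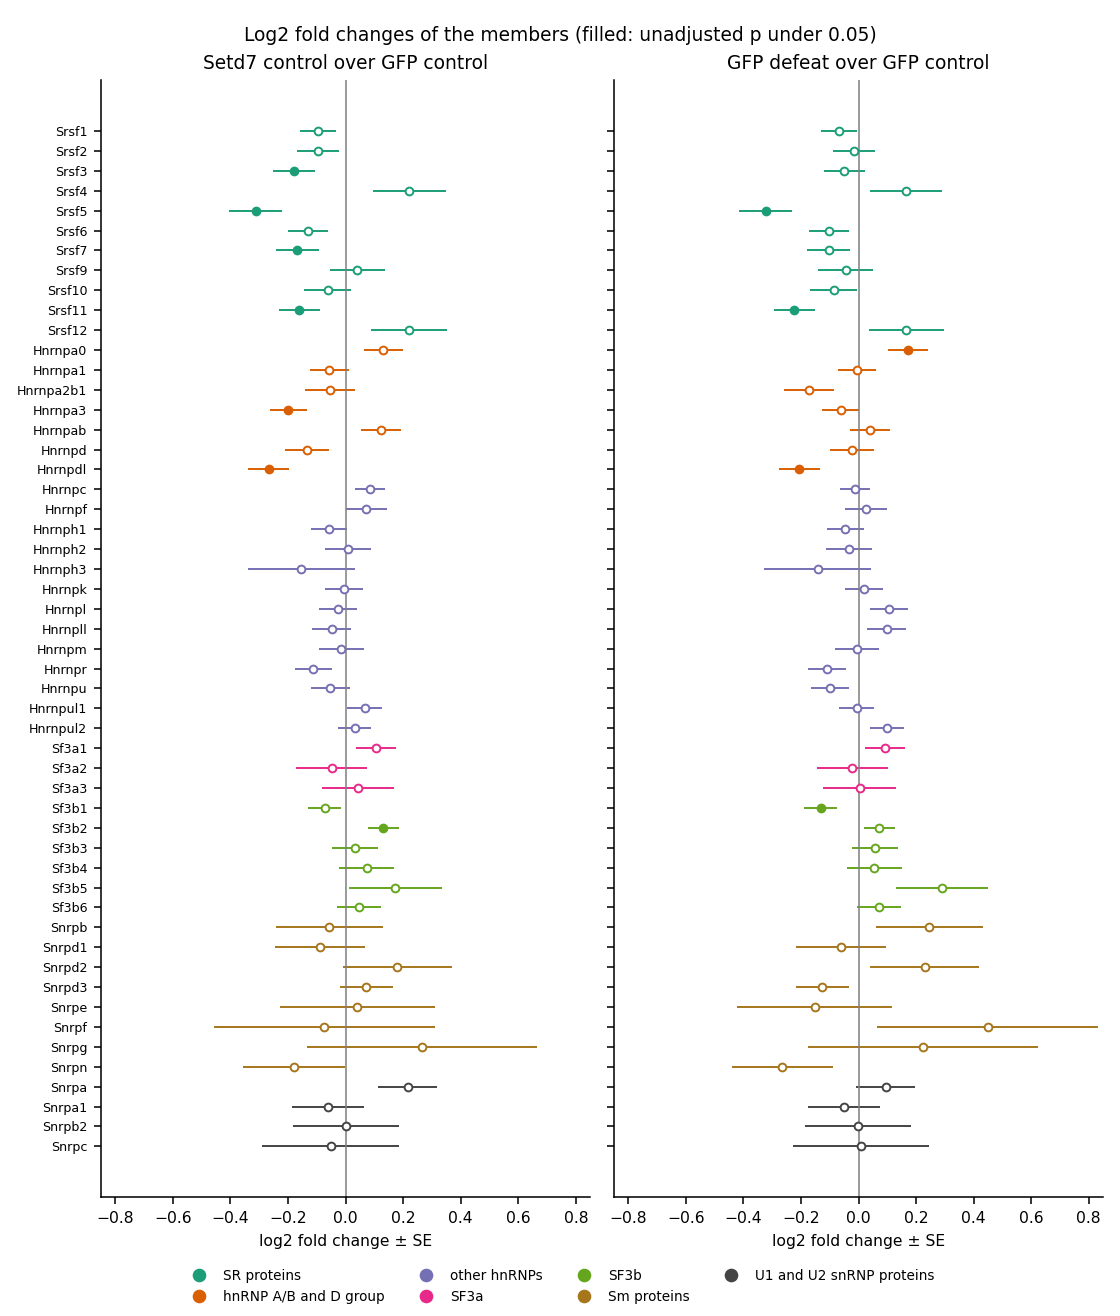
Log2 fold change ± SE by limma for each of the 52 genes, coloured by family, in Setd7 control over GFP control (left) and GFP defeat over GFP control (right); filled points have an unadjusted p under 0.05 and none passes after adjustment. The panels share GFP control, Srsf5 is the lowest point in both (−0.31 and −0.32), and the widest bars belong to Sm genes.

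Setd7 after defeat, Setd7 defeat over GFP defeat, rests on 2 libraries against 4. By limma 2 genes were higher and 3 lower at an unadjusted p under 0.05, against 460 (2.59%) and 402 (2.26%) of all tested genes, and 22 estimates lay above 0 and 30 below, against 50.8% and 49.2%, with a median of −0.02, against 0.00. GFP defeat replicate 1, low in Th, is 1 of the 4. Without the libraries low in Th, the other hnRNPs split into 7 higher and 6 lower (median 0.01), against 5 and 8 (−0.05) with all libraries. SR proteins split into 5 and 6 (−0.00), against 3 and 8 (−0.03), and U1 and U2 proteins into 2 and 2 (0.04), against 4 and 0 (0.11). In the hnRNP A/B and D group 6 of 7 lay lower either way (−0.07, against −0.10). Hnrnpul2, Hnrnpa3 and Hnrnpll had the smallest p-values among the lower genes, and Hnrnpc and Snrpd3 among the higher ones. All 12 meningeal markers lay higher with Setd7 (median 1.31), 8 of them at an unadjusted p under 0.05. Endothelial and mural markers lay higher in 10 of 10 (0.25, 4 at an unadjusted p under 0.05) and microglia markers in 10 of 10 (0.27). Dopamine markers lay higher in 16 of 18 (0.15) and thalamus markers lower in 10 of 11 (−0.19). The part of these markers was not tested. Hnrnpul2, a relative of Hnrnpu, had 5354 and 5720 normalized counts in Setd7 defeat, against 6681, 6315, 5954 and 6319 in GFP defeat, without overlap (−0.19 ± 0.07, adjusted p = 0.990 by limma). Without Setd7 defeat replicate 1 it was −0.15. Hnrnpa3 was −0.20 ± 0.07 and Hnrnpll, known for the splicing of Ptprc in lymphocytes, −0.20 ± 0.08, both without overlap. Without replicate 1 they were −0.12 and −0.16. Hnrnpc, which binds uridine tracts of nascent RNA, had 4170 and 3981 in Setd7 defeat, against 3703, 3708, 3680 and 3484 in GFP defeat, so both Setd7 libraries lay above (0.16 ± 0.06, and 0.17 without replicate 1). Snrpd3, of the Sm ring, had 789 and 858, against 719, 692, 652 and 672 (0.27 ± 0.10, adjusted p = 0.990 by limma). Snrpd3 was 0.38 without Setd7 defeat replicate 1 and 0.15 without replicate 2. Without overlap stood 3 genes higher and 5 lower, against 7.09% and 6.98% of all tested genes.

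Defeat with Setd7 virus, Setd7 defeat over Setd7 control, gave 0 genes higher and 0 lower at an unadjusted p under 0.05 by limma and by DESeq2, against 258 (1.45%) and 201 (1.13%) of all tested genes. There were 22 estimates above 0 and 30 below, against 48.0% and 52.0%. Hnrnpa2b1 came nearest, with 1695 and 1975 normalized counts in Setd7 defeat, against 2177, 2084, 2231 and 1984 in Setd7 control (−0.21 ± 0.10). These groups do not overlap, but the difference was −0.04 without Setd7 defeat replicate 1 and −0.38 without replicate 2. Srsf5 and Hnrnpdl had means of 1632 and 2303 in Setd7 defeat, against 1653 and 2234 in Setd7 control. Snrpf had the largest estimate of the 52, 0.69 ± 0.43, with a 95% interval from −0.24 to 1.63, and 0.36 without Setd7 defeat replicate 1. Meningeal markers lay higher in 12 of 12 (median 1.17, 8 at an unadjusted p under 0.05) and endothelial and mural markers in 9 of 10 (0.28), and their part was not tested.

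For both treatments together, Setd7 defeat over GFP control, 2 genes were higher and 7 lower at an unadjusted p under 0.05 by limma, against 718 (4.04%) and 755 (4.25%) of all tested genes, and 23 estimates lay above 0 and 29 below, against 51.1% and 48.9%. Hnrnpa3 led (−0.27 ± 0.08, adjusted p = 0.515 by limma), then Srsf5 (−0.33 ± 0.11), Srsf7 (−0.26 ± 0.09), Hnrnpdl (−0.22 ± 0.09) and Hnrnpa2b1 (−0.26 ± 0.10). Without Setd7 defeat replicate 1, Hnrnpa3 was −0.19, Srsf5 −0.28, Srsf7 −0.32, Hnrnpdl −0.26 and Hnrnpa2b1 −0.10. Without the 3 libraries low in Th, which leaves GFP control replicate 1 alone in its group, they were −0.20, −0.41, −0.27, −0.27 and −0.39. In that fit 10 of 11 SR proteins lay lower (median −0.17, against −0.14 with all libraries) and 8 of 8 Sm proteins higher (0.18, against 0.02). Higher were Hnrnpc (0.15 ± 0.06, and 0.16 without replicate 1) and Sf3b6, the subunit that touches the branch adenosine (0.21 ± 0.09, and 0.11 without replicate 1). Of the 52 genes 5 were higher and 14 lower without overlap, against 11.3% and 11.1% of all tested genes. Beside them 18 of 18 dopamine markers (median 0.97), 12 of 12 meningeal markers (0.96) and 10 of 10 endothelial and mural markers (0.27) lay higher and 11 of 11 thalamus markers lower (−0.96), and their part was not tested.

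Whether the Setd7 effect differed between defeated and undefeated mice was tested by the interaction, the Setd7 effect after defeat minus that without. At an unadjusted p under 0.05 limma gave 2 genes above 0 and 2 below, against 445 (2.51%) and 435 (2.45%) of all tested genes. In all 24 estimates lay above 0 and 28 below, against 50.1% and 49.9%. Srsf5 was 0.31 ± 0.14 and Hnrnpdl 0.25 ± 0.11. Both were lower with Setd7 without defeat and had estimates of −0.00 and −0.02 after it. The same GFP control libraries enter the interaction, so these estimates are not independent of the comparison without defeat. Hnrnpa0 was −0.28 ± 0.10 and Hnrnpul2 −0.22 ± 0.09 (adjusted p = 0.942 by limma for all 4). Without Setd7 defeat replicate 1, Srsf5 was 0.36, Hnrnpdl 0.20, Hnrnpa0 −0.38 and Hnrnpul2 −0.17. Without the 3 libraries low in Th, which leaves GFP control replicate 1 alone in its group, they were 0.46, 0.29, −0.34 and −0.23. In that fit 10 of 11 SR proteins lay above 0 (median 0.15), against 7 of 11 (0.06) with all libraries and 5 of 11 (−0.01) without Setd7 defeat replicate 1. In the interaction 12 of 12 meningeal markers lay above 0 (median 1.64, 7 at an unadjusted p under 0.05), as did 10 of 10 endothelial and mural markers (0.21) and 11 of 11 thalamus markers (0.54), and 18 of 18 dopamine markers lay below (−0.88). The part of these markers was not tested. The 95% interval of the interaction lay within 1.5-fold for 40 of 52 genes, against 45.1% of all tested genes.

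Averaged over defeat, the Setd7 effect had 3 genes higher and 7 lower at an unadjusted p under 0.05, against 657 (3.7%) and 608 (3.42%) of all tested genes, and 23 estimates above 0 and 29 below, against 51.0% and 49.0%. Hnrnpa3 had the smallest p of any of the 52 in any comparison (−0.20 ± 0.05, adjusted p = 0.686 by limma and 0.106 by DESeq2) and was the only one of the 52 lower in all 6 Setd7 than in all 7 GFP libraries, against 13 (0.0732%) of all tested genes. Without the 3 libraries low in Th it was −0.15, and without Setd7 defeat replicate 1 it was −0.16. Hnrnpc was 0.12 ± 0.04, Srsf7 −0.16 ± 0.06 and Hnrnpdl −0.14 ± 0.05. Without Setd7 defeat replicate 1, Hnrnpc was 0.13, Srsf7 −0.19 and Hnrnpdl −0.16. Beside them 18 of 18 dopamine markers (median 0.59), 12 of 12 meningeal markers (0.56) and 10 of 10 microglia markers (0.35) lay higher with Setd7. All 11 of 11 thalamus markers lay lower (−0.58), and the part of these markers was not tested. The defeat effect averaged over virus had 0 higher and 3 lower, against 416 (2.34%) and 503 (2.83%) of all tested genes, with 23 estimates above 0 and 29 below, against 50.3% and 49.7%. The 3 were Hnrnpa2b1 (−0.19 ± 0.07), Srsf5 (−0.17 ± 0.07) and Srsf11 (−0.12 ± 0.05). Hnrnpa2b1 was −0.28 without the 3 libraries low in Th and −0.11 without Setd7 defeat replicate 1. Leaving out that replicate made Srsf5 −0.15 and Srsf11 −0.13. In the averaged defeat effect 18 of 18 dopamine markers (median 0.35) and 12 of 12 meningeal markers (0.47) lay higher and 11 of 11 thalamus markers lower (−0.29), and their part was not tested.

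Snrpn, the Sm-type gene expressed in brain from the paternal copy of the imprinted Prader-Willi region, had 304 and 378 normalized counts in Setd7 defeat, 376, 349, 262 and 265 in Setd7 control, 309, 336, 297 and 234 in GFP defeat, and 296, 338 and 413 in GFP control. Its groups overlap in every comparison. The log2 fold change of defeat with GFP was −0.26 ± 0.18 and turned to 0.11 without the 3 libraries low in Th. Another gene on its strand covers 27.3% of its exons in the annotation.

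The annotation (GENCODE on GRCm38, matched by name) shows features that the choice by symbol did not use. Transcripts annotated as targets of NMD belong to 24 of 52 genes (46.2%), against 26.2% of 15446 tested protein-coding genes, and to 9 of 11 SR genes (81.8%), among them Srsf5 with 1 and Srsf11 with 3. Retained-intron transcripts belong to 38 of 52 (73.1%), against 54.0%, and Srsf11 has 11 of them. Counts per gene add such transcripts to the coding ones, so a difference in a gene's count need not be one in its coding message. Near-identical pseudogenes, by the same measure as for Hnrnpa3, were found for 19 of 52 genes, with 9 for Hnrnpa1, 6 for Hnrnpf and at least 1 for 6 of 8 Sm genes. Genes on the other strand cover over 10% of the exons of 7 genes, led by Snrpf (85.4%), Srsf4 (43.0%) and Hnrnpab, and since the sources used here do not state a stranded count, reads of such pairs cannot be told apart.

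Of 130 other splicing genes, in lists of kinases of SR proteins, SR-related proteins, other snRNP proteins, Lsm and Sm assembly proteins and regulators, 0 passed the adjusted threshold by limma in the 8 comparisons. In defeat with GFP 4 were higher and 21 lower at an unadjusted p under 0.05 (all tested genes 4.87% and 4.38%), with a median log2 fold change of −0.04. In Setd7 without defeat 3 were higher and 17 lower (4.31% and 3.7%), and the median was −0.02. In Setd7 after defeat 1 was higher and 1 lower (2.59% and 2.26%), and in defeat with Setd7 0 and 1 (1.45% and 1.13%). Both together gave 4 and 19 (4.04% and 4.25%) and the interaction 10 and 4 (2.51% and 2.45%). The averaged Setd7 effect gave 4 and 6 (3.7% and 3.42%) and the averaged defeat effect 0 and 18 (2.34% and 2.83%). The kinases that phosphorylate SR proteins lay lower in 9 of 9 in defeat with GFP (median −0.19) and in Setd7 without defeat (−0.11). Of all tested genes 50.4% and 48.6% lay lower there. For both together, also against GFP control, 7 of the 9 lay lower and 2 higher (median −0.22), where 48.9% of all tested genes lay lower. After defeat 6 of the 9 lay higher with Setd7. In defeat with GFP 14 of 16 SR-related genes, 22 of 34 other snRNP genes, 8 of 22 assembly genes and 31 of 49 regulators lay lower, and in Setd7 without defeat 11, 16, 9 and 26 of them.

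Clk1, one of these kinases, had 1751 and 1633 normalized counts in Setd7 defeat, 1497, 1863, 2090 and 1549 in Setd7 control, 1438, 1412, 1667 and 1187 in GFP defeat, and 2330, 2577 and 2066 in GFP control. GFP control lies above both defeat groups and overlaps 1 Setd7 control library. Clk1 was −0.71 ± 0.14 in defeat with GFP (adjusted p = 0.339 by limma but 0.00243 by DESeq2) and −0.42 ± 0.14 in Setd7 without defeat. Clk4, its relative, was −0.42 ± 0.10 in defeat with GFP (adjusted p = 0.354 by limma, 0.0345 by DESeq2). Rnpc3, a protein of the minor spliceosome, was −0.73 ± 0.15, Pnisr, an SR-related nuclear protein, −0.53 ± 0.12, Tia1, which helps U1 at weak sites, −0.52 ± 0.10 and Rbm3, a cold-inducible RNA-binding protein, −0.67 ± 0.11. For these 4, DESeq2 gave adjusted p-values of 0.00358, 0.0229, 0.00576 and 0.000413, and limma 0.339, 0.354, 0.339 and 0.339. These estimates are larger than that of any of the 52 genes in the same direction. Higher in defeat with GFP were Celf6, a CELF-type regulator (0.52 ± 0.17, but −0.01 without the 3 libraries low in Th), and the U5 helicase Ddx23 (0.26 ± 0.09). After defeat, Lsm3, of the ring that holds U6, had 506 and 444 in Setd7 defeat, against 350, 325, 346 and 318 in GFP defeat (0.50 ± 0.12, adjusted p = 0.990 by limma, and 0.45 without Setd7 defeat replicate 1).

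**Figure D5:**
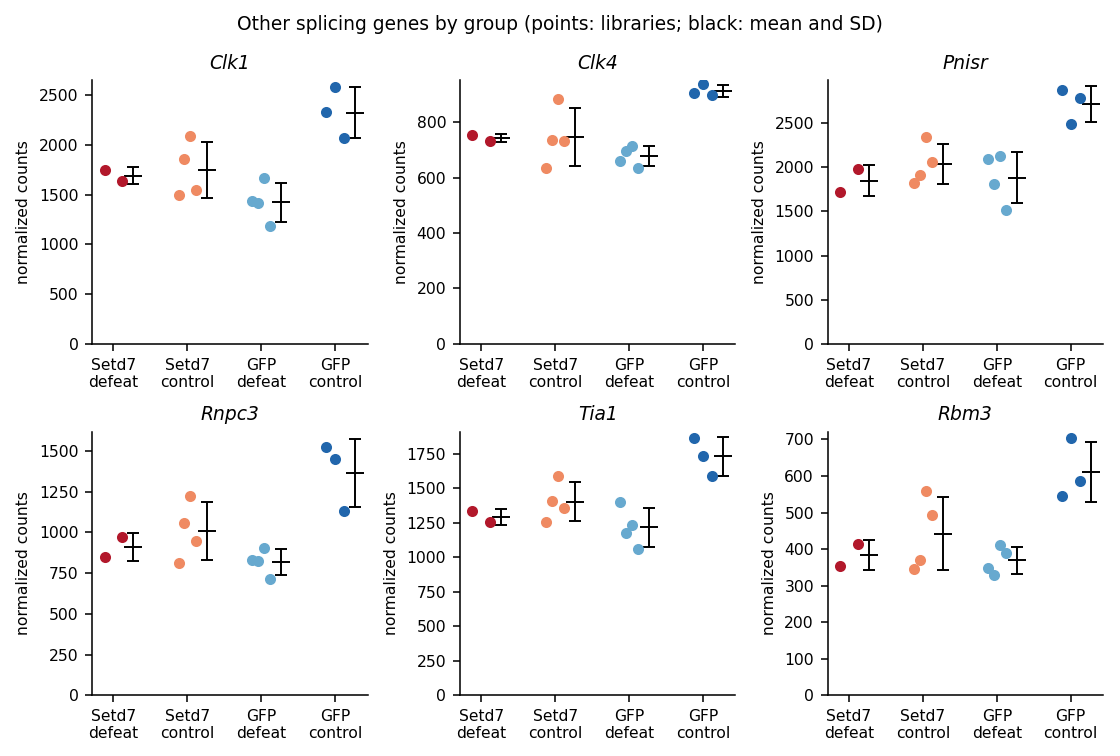
Normalized counts of 6 splicing genes outside the 52, by group, with Setd7 defeat leftmost and GFP control rightmost; points are libraries and black bars mean and SD. Clk1 is at 1187 to 1667 in GFP defeat, against 2066 to 2577 in GFP control.

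Nuclear long noncoding RNAs, listed after their values were seen, are given beside these genes, and 0 of 7 passed the adjusted threshold by limma in any comparison. At an unadjusted p under 0.05, 4 were lower in Setd7 without defeat and 4 in defeat with GFP, against 3.7% and 4.38% of all tested genes. Both together and defeat averaged also gave 4 lower (4.25% and 2.83%), and Setd7 averaged 1 (3.42%). Setd7 after defeat, defeat with Setd7 and the interaction gave 0 lower and 0 higher. A list picked by its values gives no test. DESeq2 gave 1 of the 7 RNAs, Mirg, an adjusted p of 0.0200 in defeat with GFP. Malat1, the speckle RNA that associates with SR proteins, had 156180 and 180550 normalized counts in Setd7 defeat, 165420, 158740, 232710 and 182590 in Setd7 control, 190320, 160770, 204380 and 119090 in GFP defeat, and 276800, 226060 and 234540 in GFP control. The summed level of the 7 listed RNAs was 220260 to 251670 in Setd7 defeat, 217230 to 339220 in Setd7 control, 165680 to 292740 in GFP defeat and 326750 to 399620 in GFP control, and 0 of the 7 was at 0 in any library. The summed level of 11 markers of thalamus and other excitatory neurons was 26401 to 29260 in Setd7 defeat, 25380 to 29753 in Setd7 control, 27426 to 47004 in GFP defeat and 26455 to 88235 in GFP control. The summed level of 12 oligodendrocyte markers was 510780 to 555140 in Setd7 defeat, 409350 to 531980 in Setd7 control, 440050 to 576020 in GFP defeat and 376580 to 474480 in GFP control. In Setd7 without defeat 6 of 10 astrocyte, 10 of 10 microglia, 4 of 10 endothelial and mural and 3 of 7 choroid plexus markers lay higher. In defeat with GFP the counts were 5 of 10, 7 of 10, 4 of 10 and 5 of 7, and no marker on any list was at 0 in any library. GFP control replicate 1, with a thalamus sum of 26455, has Srsf5 at 2109 and Srsf11 at 2346, the highest of all libraries for both. The part of nuclear RNA content and of tissue content in the differences between groups was not tested.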

How the data were processed

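The deposited table holds whole-transcriptome signal per gene, which the authors made by dividing read counts by DESeq2 size factors, per the file name and values. Bowtie2, featureCounts, DESeq2 and GRCm39 are named in the submitters' processing notes, and their versions and the counting strand are not given in the sources used here. The values came out as whole reads after division by each column's step: 341432 of 341432 (100%) lay within 0.01 of a whole read. Recovered depth was 26.5 to 50.8 M reads per library.

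The 17755 genes with 10 or more normalized counts in at least 2 of 13 libraries were tested with limma 3.58.1 (R 4.3.3, trend, prior degrees of freedom 4.64) on log2(value + 1), with 4 group means and sex, Benjamini-Hochberg adjustment and a threshold of 0.05. A pseudocount understates changes of low genes. edgeR 4.0.16 and DESeq2 1.42.0 were run on the recovered reads as alternatives, beside other pseudocounts, no filter, TMM scaling, no sex term, robust fitting, 3 libraries left out together and each library left out. Replicates are numbered in accession order. The fit was tested on simulated data.

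The members and lists were chosen with earlier results of these data known. Full statistics are given for up to 10 genes per direction with the smallest p in the first 2 comparisons and up to 5 in the others, and levels for the best counted gene of each family and Snrpn; of other splicing genes up to 3 per list, direction and comparison may be named. Exon lengths, transcript types and promoters come from GRCm38 annotation matched by name, since none of GRCm39 was used here. Counting error alone does not include variation between animals.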

Additional observations from a re-analysis of the deposited data

Results flagged for a closer look

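Within the 2 groups of 4 libraries, 104 sets of values were examined for a library far from the other 3, by Dixon's ratio at its 95% critical value, and 6 were past it (5.77%), where chance gives about 1 in 20. Hnrnpc read 3484 normalized counts in GFP defeat replicate 4, below the 3680 to 3708 of the other 3 libraries. Srsf12 read 1056 in the same library, against 835 to 859. Srsf10, an SR protein active as a splicing repressor, read 1812 in Setd7 control replicate 3, against 2154 to 2167, and Srsf6 read 3103 there, against 2688 to 2752. Snrpa1, the U2-A' protein, read 352 in Setd7 control replicate 2, against 297 to 306. It also read 374 in GFP defeat replicate 2, against 292 to 305.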

How the results depend on the processing

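Of 100 named gene results under 22 other settings, 2195 of 2200 values kept their direction and their side of the threshold, 5 changed sign and 0 became significant. The 100 were chosen for the smallest p per direction in these same data, and 0 was past the threshold. The counts therefore describe the settings and are no test of the directions. Without the 3 libraries low in Th, Srsf12 was −0.0873 in Setd7 without defeat and −0.1309 in defeat with GFP, and Snrpn was 0.11 in defeat with GFP. In defeat with Setd7, leaving out Setd7 defeat replicate 2 or 1 put Snrpb2 at −0.0164 or 0.4348 and Hnrnpl at 0.1886 or −0.0723. The cause was not tested. The count of the 52 genes past the adjusted threshold stayed at 0 under all 22. Over all genes, DESeq2 called 35 in Setd7 without defeat, 85 in defeat with GFP, 6 in Setd7 after defeat, 7 in defeat with Setd7, 26 for both together, 1 in the interaction, 7 for Setd7 averaged and 8 for defeat averaged. Without the filter limma called 1 in Setd7 after defeat and 1 in defeat with Setd7, and for Setd7 averaged it called 0 with robust fitting and 0 without the libraries low in Th. The median of the 52 was 0.0327 in Setd7 without defeat and 0.0076 for both together without those libraries.

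With 1 library left out, genes called ran from 0 to 4 in Setd7 without defeat, 0 to 23 in Setd7 after defeat, 0 to 18 in defeat with Setd7, 0 to 10 for both together, 0 to 3 in the interaction, 1 to 3 for Setd7 averaged and 0 to 4 for defeat averaged. The 23, 18, 10 and the highest of the last 3 came without Setd7 defeat replicate 2, and the 4 of the first without GFP control replicate 1. Medians of the 52 ran from −0.0234 to 0.0216 in defeat with GFP and −0.0639 to −0.0222 for both together. No paired analysis was made because the labels give no matching of samples between groups. Snrpf and Snrpc, at 12.6 to 90.4 normalized counts, allow only wide intervals.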
